A study of Mus musculus with 12 samples.

Results

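The Snrpn domain on mouse chromosome 7 was described through 6 genes, Snrpn, Snurf, Ndn, Magel2, Mkrn3 and Ube3a, and the CpG sites that lay inside them or within 5 kb of them. By this rule 96 of the 421177 sites in the series belonged to the domain, and each of the 6 genes had sites. Ube3a had 47 sites, Snrpn 18, Magel2 17, Ndn 9 and Mkrn3 5, and the 15 sites of Snurf were all shared with Snrpn. A value was present in all 12 mice at 71 sites, and the other 25 sites had values in at least 8 mice. The sites were selected on their position around the genes, but the genes themselves were chosen by methylation differences between the diets already seen in this table, so the diet differences that follow are descriptions of a region chosen with those values in view.

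Left ventricles of 12 FVB/N mice aged 3 weeks were profiled by reduced representation bisulfite sequencing, which reads cytosine methylation in fragments cut by MspI. Their mothers ate either Regular Diet (RD) or High Fat Diet (HFD) starting when 6 weeks old, and were mated after 8 weeks on it to males fed RD. There were 6 HFD offspring (3 female, 3 male) and 6 RD offspring (4 female, 2 male), none with an engineered allele. The labels do not say which offspring shared a mother, so the p-values measure the spread between these mice and may not measure that between litters. Libraries were numbered 2 to 8 for HFD and 9 to 14 for RD, so library order and diet cannot be told apart.

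The domain is imprinted: in most tissues its paternally expressed genes are read from the paternal chromosome only, and the maternal copy of the Snrpn promoter carries DNA methylation set down in the oocyte. Bulk DNA from both copies therefore commonly gives intermediate methylation at this promoter. Ube3a is an exception, with expression from both copies in most tissues and from the maternal copy in neurons. Each percentage here averages over both parental copies and all cells of the sample, so methylated copies lost in every cell and a changed mix of cells cannot be told apart.

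The promoter windows of RefSeq (GRCm38.p6) that held measured sites are printed 5′ to 3′ on the gene's own strand because the contrast between intermediate and low methylation lies in them. Each runs from 250 bases before to 50 bases after the gene start, and capitals mark the measured CpGs. The Snrpn/Snurf window lies at chr7:60005150-60005449 (minus strand), the Mkrn3 window at chr7:62420104-62420403 (minus strand) and the Ube3a window at chr7:59228500-59228799 (plus strand).
Snrpn/Snurf: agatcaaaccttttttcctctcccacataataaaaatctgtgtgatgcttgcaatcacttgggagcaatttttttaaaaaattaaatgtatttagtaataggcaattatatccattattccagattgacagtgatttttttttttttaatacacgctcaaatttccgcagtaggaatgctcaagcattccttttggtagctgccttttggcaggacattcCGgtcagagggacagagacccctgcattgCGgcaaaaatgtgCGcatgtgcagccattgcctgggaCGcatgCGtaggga
Mkrn3: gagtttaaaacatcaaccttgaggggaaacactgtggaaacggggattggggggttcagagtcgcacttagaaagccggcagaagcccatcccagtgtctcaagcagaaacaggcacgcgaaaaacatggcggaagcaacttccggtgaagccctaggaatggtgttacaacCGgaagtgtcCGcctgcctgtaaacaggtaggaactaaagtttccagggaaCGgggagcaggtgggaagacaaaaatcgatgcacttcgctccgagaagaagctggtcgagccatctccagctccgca
Ube3a: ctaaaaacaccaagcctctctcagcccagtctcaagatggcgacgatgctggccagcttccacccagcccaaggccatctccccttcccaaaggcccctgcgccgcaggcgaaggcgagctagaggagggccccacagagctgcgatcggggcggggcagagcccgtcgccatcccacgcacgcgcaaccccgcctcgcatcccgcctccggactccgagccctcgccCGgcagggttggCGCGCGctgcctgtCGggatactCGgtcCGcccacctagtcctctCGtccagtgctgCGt

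The Snrpn/Snurf window held 7 CpGs, of which 5 were measured, whereas the Ube3a window held 29 with 9 measured and the Mkrn3 window 15 with 3 measured. The palindrome CGCATGCG, the core of the sequence recognised by the transcription factor NRF1, was searched on both strands of all RefSeq promoter windows of this length. It occurred in 611 of 32817 windows (1.86%), and in 5 of the 8 windows of the domain's genes, namely the 4 Snrpn starts and Ndn. The 3 Snrpn windows upstream of the start shared with Snurf are close copies of each other, so their matches are not independent. At the Snrpn/Snurf start the palindrome covered chr7:60005156-60005163, and both of its CpGs were measured. This match is a description of the letters and not of binding.

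Snrpn encodes a small nuclear ribonucleoprotein of the spliceosome, and Snurf is the upstream reading frame of the same transcript. Snrpn spans chr7:59982495-60450177 on the minus strand with 4 RefSeq starts, and Snurf spans chr7:59982495-60005199. Around the start they share, 15 sites were measured, all in all 12 mice, from 30 bp before to 346 bp after it. Their mean methylation was 39.3% ± 6.80 in the 6 HFD offspring and 50.7% ± 6.09 in the 6 RD offspring (SD), a difference of -11.4 percentage points with overlapping groups. The 15 sites fell into 3 groups separated by gaps of over 50 bp, and the diet difference was not the same size in each.

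The start-site group comprised 5 sites from 30 bp before to 42 bp after the start. In HFD females replicates 2, 3 and 4 its mean methylation was 36.4%, 46.2% and 20.1%, and in HFD males replicates 2, 3 and 4 it was 23.9%, 34.3% and 22.2%. RD females replicates 1, 2, 3 and 4 had 53.3%, 65.7%, 43.9% and 40.9%, and RD males replicates 1 and 2 had 51.6% and 63.5%. HFD female 3 was the only HFD mouse inside the RD range, and the other 5 HFD mice lay below every RD mouse. The means were 30.5% ± 10.2 in HFD and 53.2% ± 10.02 in RD (SD, n = 6 each), a difference of -22.7 points, larger than the SD within either diet. Leaving out HFD female 3 therefore had to separate the groups, with HFD reaching up to 36.4% and RD down to 40.9%. They still overlapped when any other mouse was left out.

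**Figure D1:**
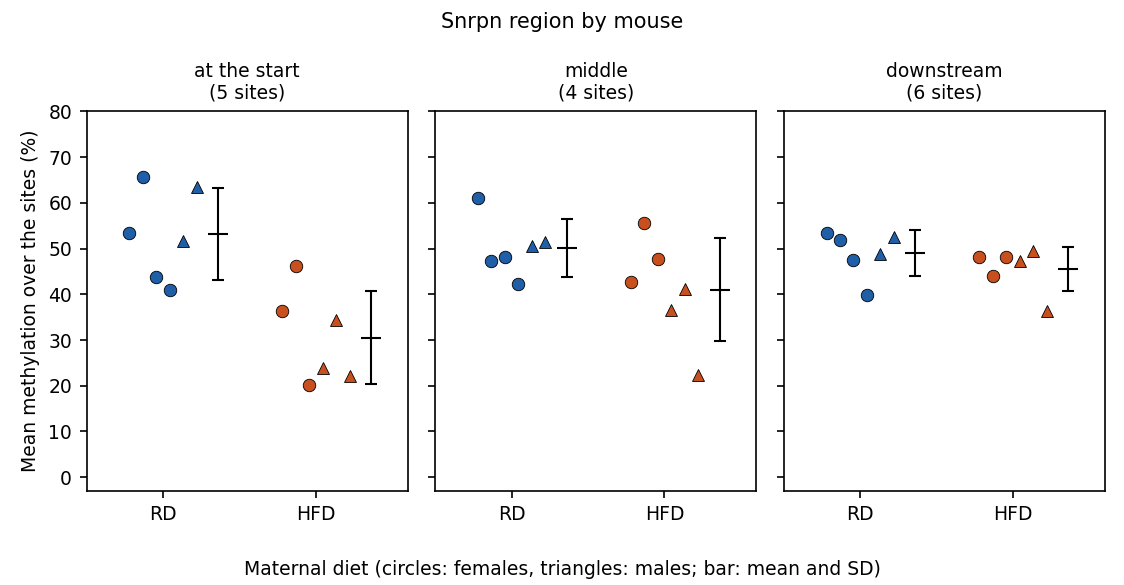
Mean methylation (percent, vertical axis) of the site groups around the Snrpn/Snurf start in each mouse by maternal diet, with circles for females, triangles for males and bars for the mean and SD. In the start-site group 5 of the 6 HFD mice lie below all RD mice, and the diets overlap broadly in the downstream group.

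All 5 sites of this group had lower means in HFD. At chr7:60005157 methylation was 29.9% ± 12.4 in HFD and 53.8% ± 9.19 in RD (SD, n = 6 each). At chr7:60005163, the other CpG of the palindrome, it was 28.7% ± 8.64 and 50.7% ± 8.79. Both CpGs of the palindrome were thus lower in HFD by similar amounts. Nearer the start, chr7:60005187 had 30.5% ± 8.91 in HFD and 53.0% ± 11.6 in RD. The base just before the start, chr7:60005200, had 30.3% ± 10.4 and 52.0% ± 9.64. The outermost site, chr7:60005229, had 33.2% ± 11.8 and 56.3% ± 12.1. In limma, with sex as a second term and Benjamini-Hochberg adjustment over all sites tested, unadjusted p was 0.00133 to 0.0048 and adjusted p 0.461 to 0.588, so none of the 5 passed the threshold of 0.05. These sites lie within 72 bp and can share fragments, so they are not independent measurements.

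The middle group comprised 4 sites from 106 to 156 bp after the start. HFD females replicates 2, 3 and 4 had 42.7%, 55.6% and 47.7%, and HFD males replicates 2, 3 and 4 had 36.6%, 41.2% and 22.3%. RD females replicates 1 to 4 had 61.2%, 47.2%, 48.3% and 42.2%, and RD males 1 and 2 had 50.5% and 51.4%. The diets overlapped, and HFD male 4 was the lowest mouse. Means were 41.0% ± 11.2 in HFD and 50.1% ± 6.29 in RD (SD, n = 6 each), a difference of -9.13 points that became -5.38 without HFD male 4. By site, the difference ranged from -7.41 points at chr7:60005043 to -10.5 points at chr7:60005053, with chr7:60005080 at -9.13 and chr7:60005093 at -9.47. Adjusted p from limma was 0.847 to 0.906.

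The downstream group comprised 6 sites from 298 to 346 bp after the start and had intermediate methylation in both diets. HFD females replicates 2, 3 and 4 had 48.2%, 44.0% and 48.2%, and HFD males replicates 2, 3 and 4 had 47.2%, 49.4% and 36.4%. RD females replicates 1 to 4 had 53.4%, 51.8%, 47.5% and 39.8%, and RD males 1 and 2 had 48.9% and 52.5%. The ranges of the diets largely coincided. Means were 45.6% ± 4.85 in HFD and 49.0% ± 5.03 in RD (SD, n = 6 each), a difference of -3.40 points, which was -1.56 without HFD male 4 and -5.23 without RD female 4. By site, the difference was -2.74 points at chr7:60004853, -3.78 at chr7:60004855 and -2.80 at chr7:60004862. Further towards the start it was -4.32 at chr7:60004871, -4.82 at chr7:60004894 and -1.93 at chr7:60004901. All 6 were lower in HFD by less than the SD within a diet, and adjusted p from limma was 0.914 to 0.975.

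**Figure D2:**
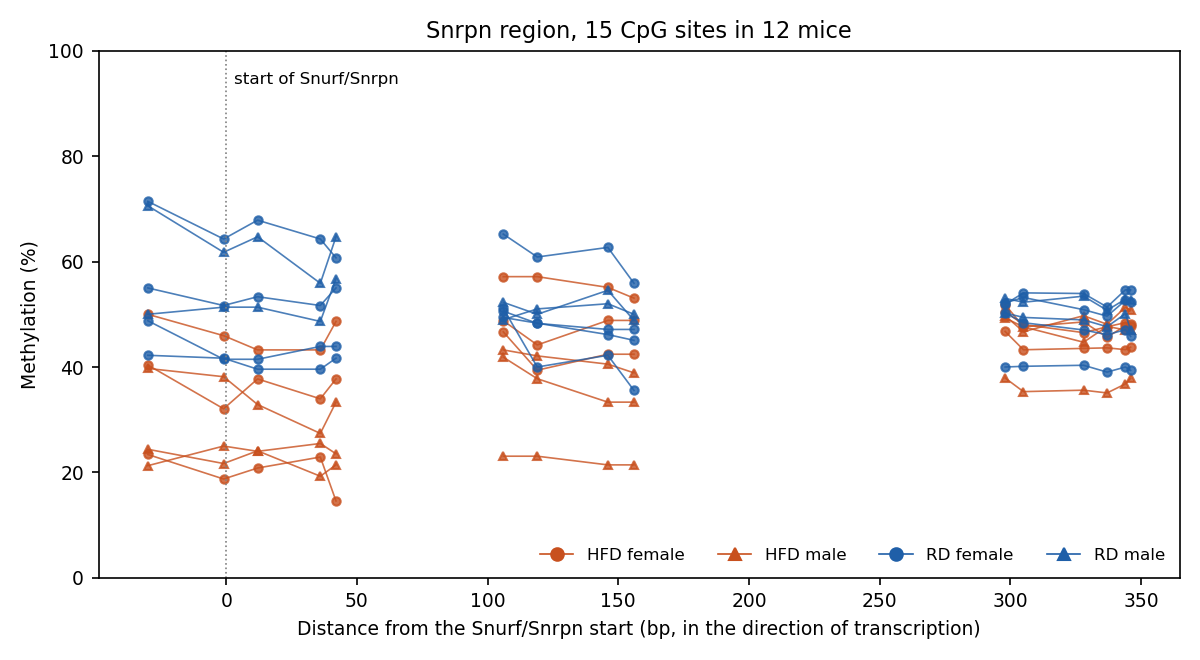
Methylation (percent, vertical axis) at the 15 sites around the Snrpn/Snurf start against distance from the start in bp, for the 12 mice by diet and sex. The gap between the diets is wider at the 5 start-site sites as a group than at the others, with HFD female 3 inside the RD range of the group mean, and the diets overlap at the middle and downstream sites.

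Within each mouse the start-site group was set against the downstream group. The start-site level minus the downstream level was -11.8, 2.18 and -28.1 points in HFD females 2, 3 and 4, and -23.4, -15.1 and -14.2 in HFD males 2, 3 and 4. It was -0.0942, 13.9, -3.55 and 1.14 points in RD females 1 to 4, and 2.72 and 11.02 in RD males 1 and 2. The start-site group was thus the lower in 5 of 6 HFD mice and in 2 of 6 RD mice, with means of -15.1 ± 10.5 and 4.19 ± 6.80 points (SD, n = 6 each). No test was made of this contrast, since it was formed over members chosen with their values known. The SD within diets was 8.72 to 11.9 points at the start-site sites, 9.11 to 9.83 at the middle sites and 4.77 to 5.24 at the downstream sites. Over the 60636 complete autosomal sites with a mean of 20 to 80%, this SD had a median of 8.06 points.

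Further upstream, 3 sites lay inside the long Snrpn transcripts. The site chr7:60063885, 58686 bp before the shared start, had values in 8 mice and means of 68.3% ± 11.4 in HFD and 69.0% ± 9.46 in RD (SD, n = 4 each). A pair at chr7:60169423 and chr7:60169427 averaged 55.7% ± 11.3 in HFD and 51.9% ± 5.69 in RD (SD, n = 6 each). Within the pair the first site was lower in HFD by its mean (-1.09 points) and the second higher (8.70 points). The difference of the pair, 3.80 points, was 0.780 without HFD male 2, 1.26 without HFD male 3 and 5.95 without HFD female 4. The upstream sites were thus also intermediate to high.

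Ube3a, a ubiquitin ligase gene, spans chr7:59228750-59310837 on the plus strand, and its 47 sites lay from 22 bp before to 551 bp after the start. Methylation was low throughout, with site means of 0 to 5.96%, and 7 sites were at 0 in every mouse with a value. Over its 36 complete sites the level was 2.02% ± 1.22 in HFD and 1.74% ± 1.51 in RD (SD, n = 6 each), so the diets differed by less than the spread. Within the 10 sites from 22 bp before to 51 bp after the start, RD female 2 stood at 11.1% while the other mice with values were at or below 3.71%. In the next 20 sites, 110 to 240 bp after the start, HFD male 3 was highest at 6.91% and HFD female 2 next at 4.19%. Only chr7:59228926 exceeded the lower limit of 5% set for testing among complete sites, and its diet difference was 0.602 points (limma, adjusted p = 0.997).

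Ndn encodes necdin, a MAGE family protein, and is a paternally expressed gene at chr7:62348277-62349928 on the plus strand. Its 4 sites inside the gene, 362 to 402 bp after the start, had no value in HFD males 3 and 4. Their mean was 6.79%, 14.6% and 2.08% in HFD females 2, 3 and 4 and 2.27% in HFD male 2. In RD it was 14.8%, 12.5%, 15.5% and 15.4% in females 1 to 4 and 14.1% and 19% in males 1 and 2. HFD female 3 lay within the RD range and the other 3 HFD mice below it, giving 6.44% ± 5.87 (SD, n = 4) against 15.2% ± 2.15 (SD, n = 6). At chr7:62348639, tested in limma with missing values allowed, unadjusted p was 0.00665 and adjusted p 0.572. The difference was -16.3 points there, -2.83 at chr7:62348652, -6.84 at chr7:62348654 and -9.14 at chr7:62348679. Unadjusted p in limma was 0.301, 0.0199 and 0.0507 at these neighbours, and adjusted p 0.670 to 0.918. Sites 1288 to 1474 bp past the end of the gene were more methylated, with 65.9% at chr7:62351216 and 28.1% at chr7:62351271. The diet difference was -1.53 points at the first of these (limma, adjusted p = 0.982). At the second HFD had 30.0% ± 7.03 and RD 26.2% ± 8.42, with an adjusted p of 0.933 from limma. The last 3 sites, chr7:62351366, chr7:62351379 and chr7:62351402, had means of 63.0%, 43.9% and 55.7% and no value in HFD females 2 and 4. Their mean per mouse ranged from 25.6 to 77.8%, and the diets overlapped.

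Magel2, another MAGE family gene expressed from the paternal copy, spans chr7:62376979-62381640 on the plus strand. In every mouse its first sites were less methylated on average than the later ones. The first 4 sites, 570 to 712 bp after the start, averaged 36.7% ± 5.74 in HFD and 34.1% ± 4.27 in RD (SD, n = 6 each), a difference below the spread. These 4 sites went both ways: chr7:62377549 was lower in HFD by its mean (-12.1 points), and chr7:62377628, chr7:62377632 and chr7:62377691 were higher (6.54, 5.99 and 9.75 points). The 11 later complete sites, 972 to 3303 bp after the start, averaged 79.6% ± 2.72 in HFD and 83.0% ± 3.49 in RD. Of the 15 tested sites 11 were lower in HFD (52.9% of all tested sites), and 2 had an unadjusted p below 0.05 (6.53% of all tested sites). At chr7:62377951 HFD had 71.1% ± 18.1 and RD 86.4% ± 8.59, with HFD female 2 lowest at 37.5%. Without HFD female 2 the difference there went from -15.3 to -8.62 points. At chr7:62377549 HFD had 16.8% ± 2.53 and RD 28.9% ± 12.01, the RD mice being the more spread. The adjusted p from limma was 0.654 at chr7:62377951 and 0.743 at chr7:62377549.

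Mkrn3 encodes a makorin ring finger protein and lies at chr7:62417593-62420153 on the minus strand. Its 3 promoter sites, 27, 68 and 78 bp before the start, averaged 37.2%, 25.5% and 0% in HFD females 2, 3 and 4 and 21.2% and 22.3% in HFD males 2 and 4. HFD male 3 had a value only at the site nearest the start, where it was 50%, as high as any HFD mouse and above 5 of the 6 RD mice. In RD the mean was 39.2%, 37.9%, 35.5% and 33.3% in females 1 to 4 and 32.8% and 49.9% in males 1 and 2. Among the 5 HFD mice with all 3 values, HFD female 2 reached the RD range and the other 4 lay below it, giving 21.2% ± 13.5 (SD, n = 5) against 38.1% ± 6.29 (SD, n = 6). At the site 68 bp before the start, chr7:62420221, the diets did not overlap, HFD having 11.2% ± 8.91 (SD, n = 5) and RD 32.2% ± 5.45 (SD, n = 6). It was the only such site of the 96, and 1 of the 51 domain sites tested with missing values allowed, against 0.66% of all sites tested that way (0.386% with HFD below RD). Its limma p there was 0.00168 and its adjusted p 0.434. HFD male 3 had no value at chr7:62420221, so the separation covers only the other 5 HFD mice. At chr7:62420231, 78 bp before the start, the same 5 overlapped RD (28.5% ± 16.4 against 43.0% ± 6.91). Of those 51 sites 0 were called (0.000469% of all) and 10 had an unadjusted p below 0.05 (6.62% of all). At chr7:62420180 HFD had 28.4% ± 19.5 and RD 39.2% ± 9.35, with an adjusted p of 0.849 from limma. HFD female 4 was at 0% there, and without it the difference went from -10.7 to -5.06 points. Inside the gene a pair of sites stood higher, HFD at 79.5% ± 6.21 (SD, n = 6) and RD at 76.2% ± 4.82 (SD, n = 4).

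**Figure D3:**
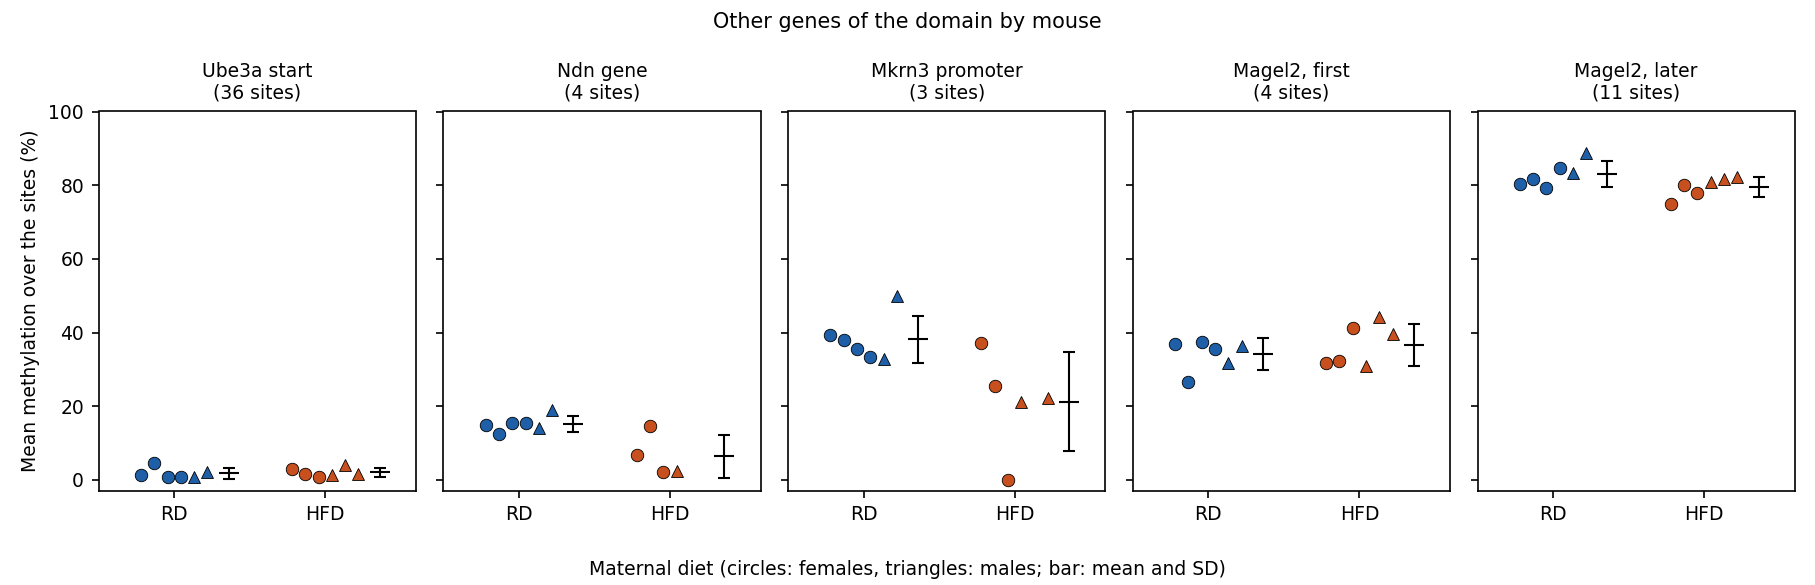
Mean methylation (percent, vertical axis) of site groups in Ube3a, Ndn, Magel2 and Mkrn3 in each mouse by maternal diet, with circles for females, triangles for males and bars for the mean and SD. Only mice with a value at every site of a group are drawn, and the Ube3a values sit near 0.

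**Figure D4:**
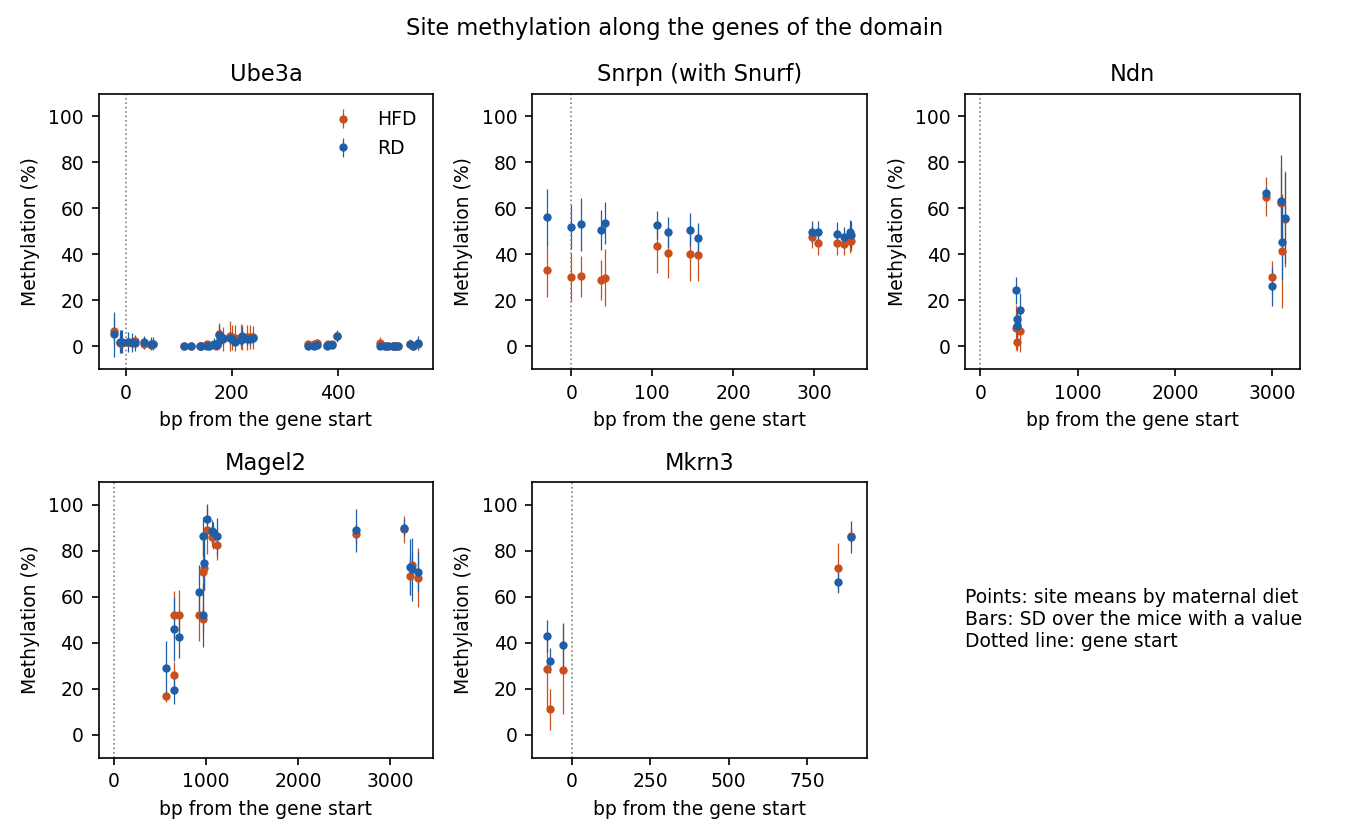
Mean methylation of each site (percent, vertical axis) against distance from the gene start in bp, one panel per gene. Ube3a is low throughout, the Snrpn sites are intermediate, and Magel2 is lower in its first sites than in its later ones.

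Across the domain no site passed the adjusted threshold for diet. Of the 36 sites that could be tested (complete, mean 5 to 95%), 0 were called by limma with Benjamini-Hochberg adjustment, against 16 of 157524 in the whole table (0.0102%). At an unadjusted p below 0.05 there were 7 of 36, all lower in HFD, against 6.53% of all tested sites (3.66% in that direction), and 5 of the 7 were the start-site group of Snrpn. Tested sites were lower in HFD at 29 of 36 positions, with a median difference of -3.28 points, against 52.9% and -0.259 points over all tested sites. Over the complete autosomal sites with a mean of 20 to 80% these were 56.0% and -0.761 points. The mean of those sites was 55.2 to 55.95% in the HFD libraries and 55.997 to 57.6% in the RD libraries, without overlap, and the part of this shift in the domain's differences was not tested. Since the domain was chosen with these values known, and 15 of the sites lie beside each other, those counts are descriptions. The groups did not overlap at 0 of the 36 tested sites, against 0.482% of all.

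Averaging neighbouring sites in tiles of 500 bp gave 5 tested tiles, 2 in Snrpn and 3 in Magel2. All 5 were lower in HFD, as were 53.1% of all tiles, and 3 of them differed by less than 3 points. None was called, against 0.0294% of 23791 tiles, and 1 had an unadjusted p below 0.05 (7.81% of all). That tile held the start-site and middle groups of Snrpn and had 35.2% ± 9.60 in HFD and 51.8% ± 6.92 in RD. Its adjusted p from limma was 0.377. The tile of the downstream group had an adjusted p of 0.875 and the 3 Magel2 tiles 0.678 to 0.950.

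**Figure D5:**
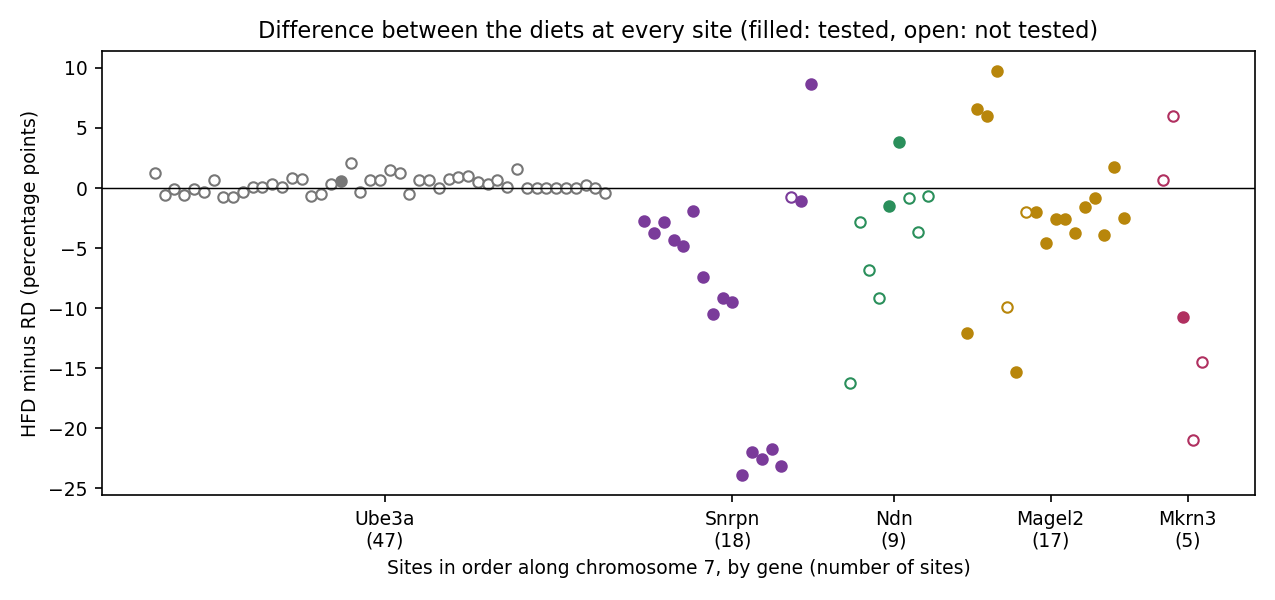
Difference between the diets (HFD minus RD, percentage points, vertical axis) at every site of the domain, with filled points for tested sites and open points for the others. Most Snrpn points lie below 0 and the Ube3a points lie near 0.

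Sex gave no called site in the domain or in the whole table (0%), and 3 of 36 domain sites had an unadjusted p below 0.05 (5.3% of all). The smallest was 0.0107 (limma, adjusted p = 0.917), at chr7:60169423 of the upstream Snrpn pair. Females and males had 43.6% and 59.6% there in HFD, and 48.2% and 61.6% in RD. In the start-site group of Snrpn females and males of HFD mothers had 34.2% ± 13.2 and 26.8% ± 6.57 (SD, n = 3 each), and those of RD mothers 51.0% ± 11.2 (n = 4) and 57.6% ± 8.42 (n = 2). In the middle group females had 48.7% ± 6.50 under HFD and 49.7% ± 8.07 under RD, whereas males had 33.3% ± 9.88 and 51.0% ± 0.646. The means of both sexes were thus lower in HFD in the start-site group. In the middle group the difference of the males rested on 3 HFD and 2 RD mice, and without HFD male 4 the HFD males averaged 38.9%. The interaction of diet and sex was called at 0 sites (0% of all), with 0 of 36 at an unadjusted p below 0.05 (5.11% of all) and a smallest p of 0.0562 in limma, at chr7:60005043 of the middle group. On untransformed rates 2 of 36 had an unadjusted p below 0.05 (4.99% of all) and 0 were called.

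Depth was not given in the table used, which holds percentages without read counts, and no interval was given for a single value. The number of sites with a value ranged from 385299 in HFD male 4 to 417081 in HFD female 3, and mean autosomal methylation from 37.5 to 38.9%. HFD male 4, with the fewest values, was also the lowest mouse of the middle and downstream Snrpn groups, and the part of coverage in this was not tested. The tissue label could not be checked, as 0 of 11 endothelial, fibroblast and leukocyte marker genes and 3 of 7 cardiomyocyte marker genes had gene-end windows with enough sites, and methylation of those 3 does not identify the cells. Their means were 49.0% in HFD and 47.7% in RD at Tnnt2, 2.301% and 2.278% at Ryr2, and 67.3% and 71.1% at Myh6, each a difference below the SD within a diet.

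The windows at other gene ends whose methylation varied across the 12 mice most like the Snrpn region were found by Pearson's r among 1479 windows of intermediate methylation. They were D830024N08Rik (r = 0.895), Airn (0.865), Serpina12 (0.848), Gm42808 (0.827) and Klf2 (0.826), where the median window had 0.085 and the 99th percentile was 0.755. All of these windows share the same 12 libraries, and since diet was not removed before the correlation, a diet difference of the same sign is part of how they were picked. On a list of 18 other imprinted genes, 13 had windows, and 9 of the 14 windows were lower in HFD, against 45.8% of all windows. Of the 11 such windows with a mean of 20 to 80%, 7 were lower, with a median difference of -9.02 points, against 56.8% and -0.514 points over all 1481 windows in that range. The list was written with earlier results of these data known, so these counts are descriptions.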

How the data were processed

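Percent methylation per CpG was deposited by the authors as one table with 1 column per mouse, per the file headers, and was used as deposited. The submitters' processing notes name FastQC, Trim Galore, Bismark 0.19, limma and the build mm10. The coverage minimum is not given in the sources used here. In RefSeq promoter windows of GRCm38.p6, 45514 of 45522 sites fell on a CpG, so positions were read on that build.

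Mice were grouped by the diet and sex in the labels. Rates as fractions were turned into log2((rate + 0.05)/(1 - rate + 0.05)) and fitted with limma 3.58.1 (R 4.3.3) with diet and sex as terms, over all autosomal sites with 12 values and a mean of 5 to 95%, and over 500 bp tiles with at least 3 such sites. Two-sided p-values were adjusted by Benjamini-Hochberg over the whole set of sites or tiles, and 0.05 was the threshold. The fit was tested on simulated data. Group levels are unweighted means over sites.

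All 6 genes were named, with every site within 3 kb of the Snrpn/Snurf start, the site of smallest unadjusted diet p in each gene, and the 5 windows (1 kb each side of a gene end, at least 3 sites, mean 20 to 80%) most like the Snrpn region. Further sites of Ndn, Mkrn3 and Magel2, and the groups of neighbouring sites, were picked after their values were seen. The members and lists were chosen with earlier results of these data known. Alternatives changed the offset, filters, tile size, model terms and the mice included.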

Additional observations from a re-analysis of the deposited data

Results flagged for a closer look

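Of 60 sets of values examined, 4 had a mouse far from the others of its diet or of the RD females, where chance gives about 1 in 20, or 3. RD female 2 stood apart in 3 of them, of which the Ube3a sets share 9 sites and are not separate. In the 10 sites at the Ube3a start it had 11.1%, with the other RD mice at 0 to 0.357%. Over the complete Ube3a sites it had 4.58%, with the other RD females at 0.689 to 1.21%. In the first 4 Magel2 sites it had 26.5%, with the other RD females at 35.6 to 37.5%. At the Mkrn3 promoter sites RD male 2 had 49.9%, with the other RD mice at 32.8 to 39.2%.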

How the results depend on the processing

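The count of called sites in the domain was 0, and that of called tiles 0, under every alternative run, with smallest adjusted p from limma of 0.239 to 0.815 for sites and 0.221 to 0.654 for tiles. Leaving out each mouse in turn gave differences of -13.3 to -9.06 points for the Snrpn region, -25.8 to -20.2 for the start-site group, -12.1 to -5.38 for the middle group and -5.23 to -1.56 for the downstream group. For the first 4 Magel2 sites the difference of 2.54 points was 1.64 without HFD female 4, 1.02 without HFD male 3 and 1.02 without RD female 2, and for the later ones -3.44 became -2.27 without RD male 2. The leave-one-out alternatives for site groups and named sites in points, and the median over sites, were chosen after seeing the data.

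The direction changed at 2 named sites far from the threshold, and the cause was not tested. At chr7:59228926 in Ube3a it changed when 1 of 4 RD mice was left out, where leave-one-out adjusted p ranged from 0.975 to 1. At chr7:60004901 in Snrpn it changed with the replicate block (adjusted p = 0.999). With the replicate number as a block, 0 sites and 0 tiles of the domain were called. Deviations of same-numbered mice from their group means had r of -0.0765 to 0.0192 over 13 pairs, against -0.111 to 0.133 over 40 other pairs. Of 12 mice, 1 correlated best with its own number. These deviations sum to 0 within a group, and those of the 2 RD males mirror each other, so some signs were fixed in advance. Whether equal numbers mark a shared litter or batch cannot be told from this. The table used holds no read counts, and the noise of each percentage was not estimated.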

Other observations

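Peg12, a paternally expressed neighbour of Mkrn3 that is not a member of the domain, had 37 sites with means of 3.14 to 31.3%. Its complete sites averaged 12.8% ± 1.64 in HFD and 14.7% ± 1.53 in RD (SD, n = 6 each). The window at Herc2 was close to unmethylated (1.26%).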
